A study of Homo sapiens with 6 samples.

Results

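H3K79me2, histone H3 dimethylated at lysine 79, was compared between KDM2B-knockdown and control 293T cells in the peak lists of 2 libraries of a series of 6. The members are all peaks on chromosomes 1 to 22 and X in the list of the shCTL H3K79me2 library (6808 peaks) and in the list of the shKDM2B H3K79me2 library (6176 peaks), 12984 of the 27284 peaks that the 6 libraries hold on those chromosomes. 293T is an established line derived from human embryonic kidney that expresses the large T antigen of SV40. The control group was 293T with a stably expressed control hairpin RNA (shCTL), and the knockdown group was 293T with a stably expressed hairpin against KDM2B (shKDM2B). The same Abcam antibody, of the same lot, was used for H3K79me2 in both lines, and each line also gave 1 H3K79me3 library and 1 input library made without antibody. The study asked whether KDM2B removes methyl groups from H3K79.

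Methyl groups are placed on lysine 79 of H3 by DOT1L, which acts on nucleosomes and travels with factors of the transcription elongation machinery. Mono-, di- and trimethylated forms are found mainly over the transcribed parts of active genes, densest in the first part of the gene body. KDM2B is a protein with a JmjC domain, the fold of a large family of histone demethylases, and a CxxC zinc finger that binds unmethylated CpG islands, where it is known as a partner of a variant Polycomb complex.

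With 1 library a side there was no replicate, no test between the lines and no p-value, so every difference below is one between libraries. Both libraries are from stable hairpin lines, and that KDM2B was lowered is known here from the labels alone, since its level was not analysed. The control library held 16018517 tags after duplicate removal and the knockdown library 13144744, a ratio of 0.821. The caller estimated a fragment length of 148 bp for the control and 210 bp for the knockdown library, a difference of 62 bp, and the tag size was 47 bp and 50 bp. Peaks on chromosomes 1 to 22 and X held 13.0% of the filtered tags in the control and 10.8% in the knockdown library. Depth, fragment length and the share of tags in peaks thus differed with the cell line. Their part in the differences of width, density and number was not tested. Levels are given as tags per 1000000 filtered tags (RPM) and, because each library's peaks have their own width, as RPM per kb of peak. Intervals are 95% and cover counting error only. Exact Clopper-Pearson binomial intervals are given for shares and exact Poisson intervals for tags. Sites below the calling threshold are not listed, so no level of 0 can be read from a missing peak. An hg19 annotation was not used here, so regions are given by position and no gene is named.

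Most H3K79me2 sites were listed in both lines, and the sites listed in 1 line only differed in kind between the lists. Peaks are called counterparts here when they share at least 1 bp. No counterpart was found for 1292 control peaks (19.0%, interval 18.1 to 19.9%), and these were 2237.5 bp wide with 116 tags at the median. None was found for 750 knockdown peaks (12.1%, interval 11.3 to 13.0%), whose medians were 1405 bp and 41.5 tags. The control-only peaks covered 4.13 Mb and the knockdown-only peaks 1.65 Mb. By the scores as deposited, the control-only peaks were thus both more numerous and larger. With control scores scaled to the depth of the knockdown library, 932 control-only and 930 knockdown-only peaks were left (14.97% and 15.06%). The scaled lists were of near-equal length, which forces such counts together. The part of depth in the excess was thus not tested. The difference in size was still there, with median widths of 2828 and 1474.5 bp. Of the control-only peaks 62 (4.799%) and of the knockdown-only peaks 34 (4.53%) lay on a peak of an input library, against 3.22% and 3.11% of all control and knockdown peaks.

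In the control list a missing counterpart was most frequent at both ends of the width range, whereas in the knockdown list it fell mainly on narrow peaks. Control peaks under 1 kb lacked a counterpart in 38.1% of cases (358 of 940, interval 35.0 to 41.3%). The share was 14.9% from 1 to 2 kb, 10.7% from 2 to 3 kb and 11.3% from 3 to 5 kb, then 22.4% from 5 to 7 kb. Over 7 kb it was 42.9% (165 of 385, interval 37.9 to 48.0%). Knockdown peaks under 1 kb lacked a counterpart in 52.7% of cases (214 of 406, interval 47.7 to 57.7%). From 5 to 7 kb the knockdown share was 4.64% and over 7 kb it was 11.1% (39 of 352, interval 7.998 to 14.8%). In each of the 3 classes above 3 kb the control share was the larger, and under 1 kb and from 1 to 2 kb the knockdown share. The intervals cover counting error within a list and do not compare the lines. Each list was classed by its own called width, so a class does not hold the same sites in both lists. From 1 to 2 kb the knockdown share was 20.2% (interval 18.1 to 22.5%) and the control interval 13.2 to 16.7%. With depth-scaled scores the shares over 7 kb were 36.8% of 321 control and 14.2% of 352 knockdown peaks. The control peaks over 7 kb were dense in tags, with a median of 7.91 RPM per kb, but had a median score of 107 and a median fold enrichment over the caller's background of 3.78. The control peaks of 3 to 5 kb had 5.47 RPM per kb, a score of 319 and a fold of 5.33. The score is the authors' significance value for a peak, with 50 as the lowest that the caller lists.

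**Figure D1:**
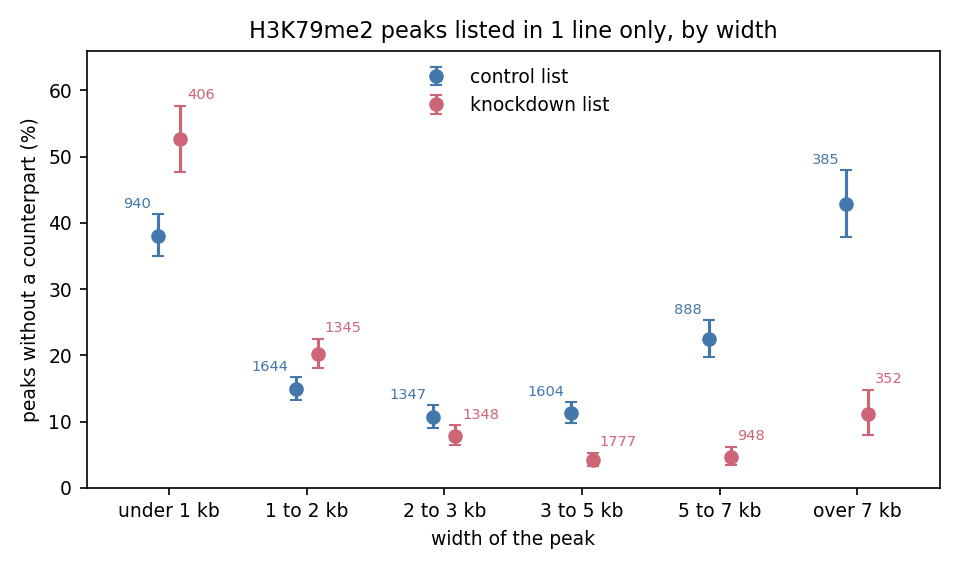
Share of H3K79me2 peaks with no overlapping peak in the other line (y axis, %) by the width of the peak (x axis) for the control list (blue) and the knockdown list (red); bars are exact 95% binomial intervals and the small figures are the number of peaks in the class. The control shares are high at both ends, 38.1% under 1 kb and 42.9% over 7 kb, whereas the knockdown shares fall from 52.7% under 1 kb to 4.22% at 3 to 5 kb and stand at 11.1% over 7 kb.

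Most of the tags in control-only peaks lay in peaks wider than 5 kb. The 364 control-only peaks of that width, of 1292 in all, held 73.3% of all tags in control-only peaks. The 83 knockdown-only peaks of that width held 54.6% of the tags in knockdown-only peaks. Wide peaks hold many tags in any case: over all control peaks the median was 602 tags from 5 to 7 kb and 956 over 7 kb, against 25 under 1 kb. The share of tags in wide peaks over the whole lists is not given here, so these shares are not a trait of unmatched peaks. Few wide unmatched peaks of either list lay close to a peak of the other list. Of the 165 control-only peaks over 7 kb, 1 lay within 1 kb and 12 (7.27%) within 10 kb of a knockdown peak. Of the 39 knockdown-only peaks over 7 kb, 0 lay within 1 kb and 4 (10.3%) within 10 kb of a control peak. Over all widths 15.9% of control-only and 15.2% of knockdown-only peaks lay within 10 kb of a peak of the other list.

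By score the share without a counterpart fell steeply in both lists, and by tags per kb it fell less in the control list. In the lowest quartile of the control score 49.4% of peaks had no counterpart and in the highest 1.704%. The knockdown values were 36.4% and 0.518%. In quartiles of tags per kb the control shares were 32.8%, 17.0%, 14.2% and 11.9% from lowest to highest, and the knockdown shares 35.8%, 6.93%, 2.78% and 3.04%. Of the densest control peaks, therefore, 202 of 1702 were unmatched, against 47 of 1544 of the densest knockdown peaks.

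The 4 highest-scoring control peaks with no counterpart and outside input peaks were wide and rich in tags. At chr4:56261927-56266393 (hg19, as all positions here) the control peak held 1008 tags, 62.9 RPM (interval 59.1 to 66.9), or 14.1 RPM per kb, and the nearest knockdown peak was 46.6 kb away. At chr21:44491152-44496082 it held 1245 tags, 15.8 RPM per kb, with the nearest knockdown peak 23.8 kb away. At chr2:86947392-86953184 it held 1370 tags, 14.8 RPM per kb. At chr5:32585502-32590162 the control peak held 959 tags, 12.8 RPM per kb, and the nearest knockdown peak was 272 kb away. All 4 were denser than the 95th percentile of the control peaks paired with a knockdown peak, which was 11.6 RPM per kb. All 4 overlapped an H3K79me3 peak of knockdown cells, and 3 of them, all but the region on chromosome 2, an H3K79me3 peak of control cells. Trimethylation of the same lysine was therefore listed in knockdown cells at each of these sites where dimethylation was not.

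The highest-scoring knockdown peaks with no counterpart held fewer tags. At chr3:131217958-131222315 the knockdown peak held 526 tags, 40.0 RPM (interval 36.7 to 43.6), or 9.18 RPM per kb. At chr1:28696121-28700080 it held 502 tags, 9.64 RPM per kb, and at chr3:127839236-127842894 it held 331 tags, 6.88 RPM per kb. At chr11:75690409-75694776 it held 382 tags, 6.65 RPM per kb, and the nearest control peak was 415 kb away. All 4 overlapped H3K79me3 peaks of both lines.

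Across the lists, H3K79me2 peaks with a counterpart carried H3K79me3 more often than peaks without one. Of 5516 control peaks with a counterpart 72.3% overlapped a control H3K79me3 peak and 89.2% a knockdown one. Of the 1292 control-only peaks 42.8% (interval 40.1 to 45.6%) overlapped control and 52.9% (interval 50.1 to 55.6%) knockdown H3K79me3. Of the 750 knockdown-only peaks 14.4% (interval 12.0 to 17.1%) overlapped control and 34.0% (interval 30.6 to 37.5%) knockdown H3K79me3. Sites of dimethylation listed in knockdown cells only thus overlapped trimethylation least often, and 64.5% of them lay on no H3K79me3 peak of either line. These sets differed in width, and the shares were not matched on it.

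Where the mark was listed in both lines, knockdown peaks were wider and less dense, with about the same RPM. For these comparisons a peak was paired when it overlapped exactly 1 peak of the other list and was that peak's only overlap, which gave 5315 pairs, 78.1% of the control and 86.1% of the knockdown peaks. The median width was 2689 bp in control and 3191 bp in knockdown cells, and 72.7% of the pairs were wider in knockdown. The median log2 ratio of width, knockdown over control, was 0.16 with quartiles at -0.01 and 0.47, and the median change was 302 bp. The median level was 12.1 RPM in control and 13.2 RPM in knockdown cells, with a median ratio of 0.998 within pairs and quartiles of the log2 ratio at -0.25 and 0.36. Per kb the median level was 4.28 RPM in control and 3.92 RPM in knockdown cells, with a median log2 ratio of -0.15 and quartiles at -0.32 and 0.03. Per kb, then, 28.3% of the pairs were higher in knockdown cells. With each peak shortened by its library's fragment length, the median log2 ratio of width was 0.14.

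Large differences were common in width and in RPM and rare per kb. A pair was counted as past the fold when it differed by more than 1.5-fold. By width 1064 pairs (20.0%) were past it upward and 74 (1.39%) downward. By RPM 916 (17.2%) were past it upward and 180 (3.39%) downward. Per kb the balance turned, with 44 pairs (0.828%) upward and 236 (4.44%) downward. These shares are counts over all pairs, so they are themselves the background for any region named below.

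The pairs that gained RPM were mostly narrow, weak peaks that had become wider. Of the 916 pairs past 1.5-fold upward in RPM, 761 were also past it in width and 41 per kb. Their median width was 1318 bp in control and 2638.5 bp in knockdown cells, and their median density 2.65 and 2.91 RPM per kb. The 236 pairs past 1.5-fold downward per kb were of another kind. They were dense in control cells, with a median of 7.47 RPM per kb against 4.63 in knockdown cells, and their median width was 2770 bp and 3923 bp. Of these 236 pairs 78 were also past 1.5-fold in width upward. In those 78 the median was 280 tags in control and 275.5 in knockdown cells, over 2304 bp and 4513 bp.

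**Figure D2:**
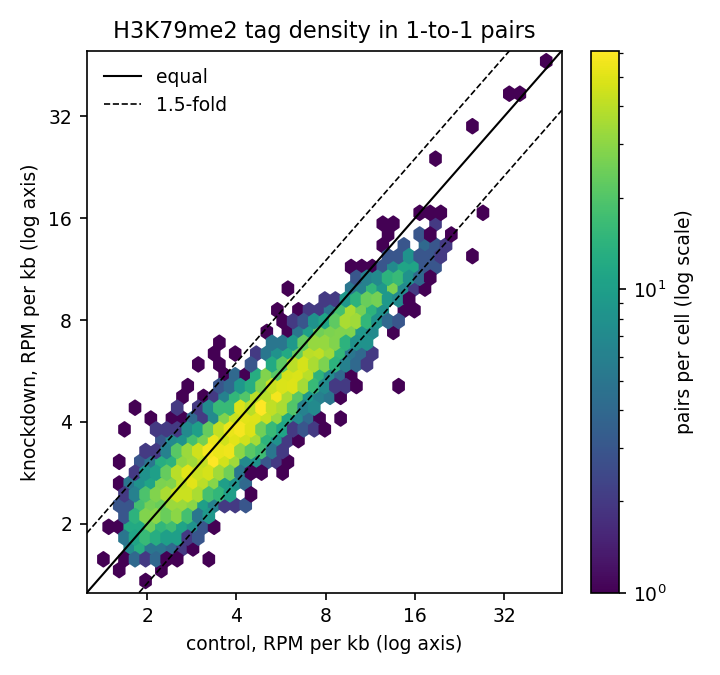
Tag density of the 5315 H3K79me2 pairs in control (x axis) and knockdown cells (y axis), in RPM per kb on log axes; the colour of a cell gives the number of pairs in it on a log scale, the solid line marks equal density and the dashed lines a 1.5-fold difference. The cloud follows the line at low density and mostly lies below it at high density, apart from a few of the very densest pairs on or above it, and 0.828% of the pairs lie above the upper and 4.44% below the lower dashed line.

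The order of sites by H3K79me2 was largely shared by the lines. Spearman's rho across the 5315 pairs was 0.933 for RPM per kb, 0.944 for RPM and 0.870 for width; pairs of the same libraries share depth and calling and are not replicates. The range of levels was narrower in knockdown cells. The SD of log2 RPM per kb over pairs was 0.76 in control and 0.67 in knockdown cells, and the 95th percentile was 5.597 times the 5th in control and 4.47 times in knockdown cells. The SD of log2 width was 0.95 and 0.82. The narrowing of the density range lay at its upper end: the 5th percentile was 2.07 RPM per kb in control and 2.08 in knockdown cells, and the 95th was 11.6 and 9.27. The calling threshold bounds the lower end in both lists, where the lowest densities of the pairs were 1.44 and 1.37 RPM per kb. A change at that end could therefore hardly be seen.

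The lower density in knockdown cells was most marked at the densest sites. In quartiles of control tags per kb, the median log2 ratio per kb was 0.03, -0.10, -0.20 and -0.32 from the sparsest to the densest. In the sparsest quartile the medians were 2.46 RPM per kb in control and 2.45 in knockdown cells, and 55.2% of the pairs were higher in knockdown. In the densest they were 8.81 and 7.30, and 5.57% of the pairs were higher in knockdown. In that quartile 10.6% of the pairs were past 1.5-fold downward and 0% upward. A class defined by 1 of the libraries in a ratio tilts the ratio by itself, so the classes were also formed from the knockdown peak and from the geometric mean of both. By knockdown density the medians were -0.11, -0.08, -0.16 and -0.24, and by the mean -0.04, -0.09, -0.18 and -0.29. The densest class had the lowest ratio in all 3 forms, and the rise in the sparsest class was seen with classes by control density alone.

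The wider calls in knockdown cells were most marked at narrow peaks, but how strongly depended on which peak set the class. By control width the median log2 ratio of width was 0.73 under 1 kb, 0.34 from 1 to 2 kb, 0.16 from 2 to 3 kb, 0.08 from 3 to 5 kb, 0.03 from 5 to 7 kb and -0.02 over 7 kb. Control peaks under 1 kb went from a median of 768 bp to 1250 bp, and 95.3% of them were wider in knockdown. Those over 7 kb went from 7499 bp to 7458.5 bp. By knockdown width the medians ran from 0.19 under 1 kb through 0.24, 0.19, 0.15 and 0.12 to 0.08 over 7 kb. By the mean of both they ran from 0.55 to 0.02. With the knockdown or the mean width all 6 classes were thus above 0. The widest listed peak was 9166 bp in control and 8846 bp in knockdown cells. An equal move in bp also gives a larger log2 ratio at a narrow peak. The part of either in the trend with width was not tested.

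**Figure D3:**
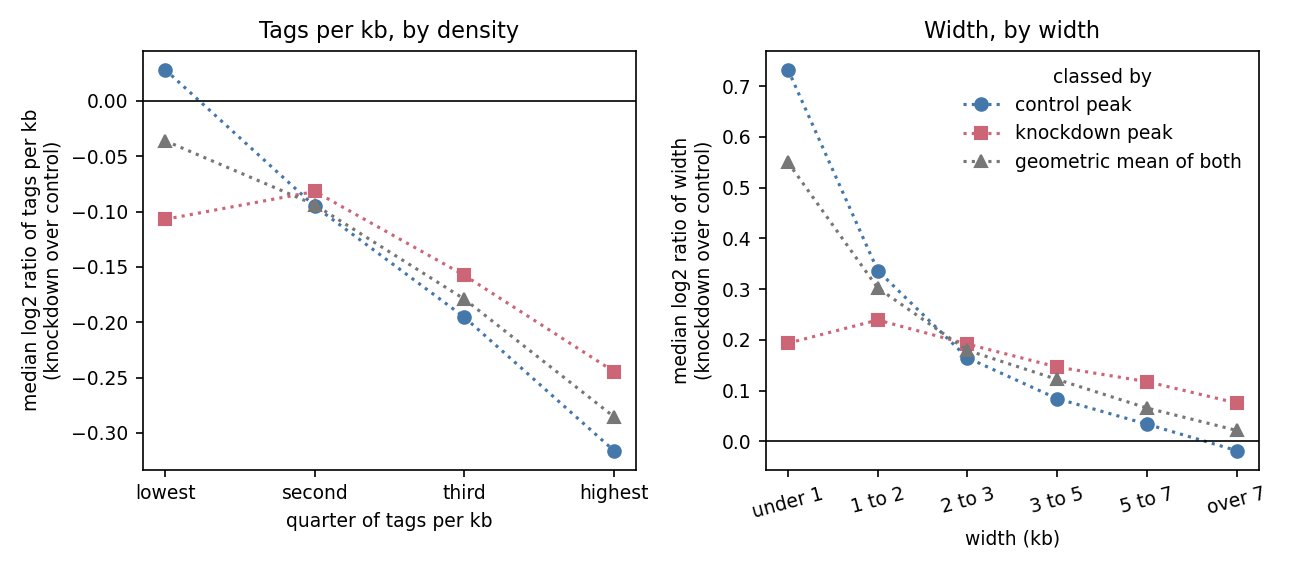
Median log2 ratio, knockdown over control, of RPM per kb by quartile of density (left) and of width by width class (right), with classes set by the control peak (blue circles), the knockdown peak (red squares) or the geometric mean of both (grey triangles). On the left every series is lowest in the densest class, at -0.32, -0.24 and -0.29; on the right the blue series falls from 0.73 to -0.02 and the red one stays between 0.24 and 0.08.

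Width and density of the control peak went with different measures. Among control peaks of 3 to 5 kb the median log2 ratio per kb was 0.05, -0.04, -0.17 and -0.32 over the density quartiles (65, 320, 490 and 538 pairs), while the log2 ratio of width stayed between 0.07 and 0.12. From 2 to 3 kb the ratio per kb went from 0.07 to -0.38, with the width ratio between 0.14 and 0.17. From 1 to 2 kb it went from 0.02 to -0.40, with the width ratio between 0.28 and 0.35. Within each of these widths the density ratio thus followed control density and the width ratio hardly did. These classes were set by the control peak alone, which tilts the ratio per kb by itself. Width and density were not crossed with other class variables, so the size of that tilt here is not known. Under 1 kb most pairs, 460 of 509, fell in the sparsest quartile, and the other 3 quartiles held 35, 8 and 6 pairs and were not in order.

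Single regions picked by set rules are given as examples. Regions were named among the 3422 pairs that lay outside input peaks and had at least 100 tags in both libraries. The 3 pairs with the most RPM in control cells all had less in knockdown cells. A choice by the control level favours a lower knockdown level by itself, so these 3 do not bear on the pattern. At chr19:14521969-14530442 the control peak held 170 RPM (interval 163 to 176) and the knockdown peak 118 (interval 112 to 124), over 8267 and 8094 bp. At chr1:76250974-76259931 the levels were 161 RPM and 111 RPM over 8956 and 8474 bp. At chr2:232571973-232579015 they were 154 RPM over 5693 bp and 112 RPM over 7043 bp, which is 27.1 RPM per kb in control and 15.9 in knockdown cells. The log2 ratios per kb of these 3 regions were -0.49, -0.46 and -0.77.

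In the regions with the largest fall per kb, the knockdown peak spread well past the control peak and held somewhat more RPM. At chr19:3571300-3574146 the control peak held 132 tags in 1023 bp, 8.06 RPM per kb (interval 6.74 to 9.55), and the knockdown peak 137 tags in 2847 bp, 3.66 RPM per kb (interval 3.07 to 4.33), with summits 3 bp apart. The log2 ratio per kb was -1.14. At chr22:39077041-39080161 the control peak held 241 tags in 1462 bp and the knockdown peak 210 tags in 3121 bp, 10.3 and 5.12 RPM per kb, a log2 ratio of -1.01 with summits 41 bp apart. At chrX:40501322-40507091 the peaks held 180 tags in 1537 bp and 275 tags in 5770 bp, a log2 ratio per kb of -1.01 and of RPM of 0.90. The lowest ratio per kb, -1.45, was at chr19:4117440-4124559, where the knockdown peak was 7120 bp wide against 1913 bp. In each of these 4 regions RPM was higher in the knockdown peak, and the lower value per kb came with the wider call.

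The regions with the largest rise per kb were fewer and smaller in size of change. At chr6:6001238-6007081 the control peak held 180 tags in 3270 bp, 3.44 RPM per kb (interval 2.95 to 3.98), and the knockdown peak 503 tags in 5844 bp, 6.55 RPM per kb (interval 5.99 to 7.15), a log2 ratio of 0.93. Here both tags and width were higher in knockdown cells. At chr8:145546971-145550469 density was 3.49 RPM per kb in control and 5.76 in knockdown cells over peaks of similar width, 3455 and 3194 bp, a log2 ratio of 0.72. At chr17:27913320-27916592 it was 3.09 and 4.79, a log2 ratio of 0.63, and this region overlapped an H3K79me3 peak in knockdown cells but not in control cells. At chr1:1254119-1259326 the rise, from 6.06 to 9.67 RPM per kb, came with the largest narrowing of all named pairs, from 5181 to 1235 bp, and RPM was lower in knockdown cells, at 11.9 against 31.4. Both summits of that region lay at the same base.

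Widening at single regions went up to 4.39-fold. At chr13:48807272-48813900 the peak was 1511 bp wide in control and 6629 bp in knockdown cells, with 8.43 and 23.4 RPM. At chr8:80937314-80942160 it went from 1265 to 4839 bp, with 6.68 and 15.1 RPM, and at chr16:22018782-22024171 from 1417 to 5390 bp, with 8.24 and 18.0 RPM. All 3 had more RPM and less RPM per kb in knockdown cells. Narrowing was rarer. At chr21:46286170-46293688 the peak went from 7451 to 3167 bp and from 33.0 to 16.7 RPM, and at chr7:134137615-134144024 from 6295 to 2730 bp and from 19.98 to 12.5 RPM. Both had more RPM per kb in the narrower knockdown call, 5.26 against 4.42 and 4.57 against 3.17.

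The summit, the position of greatest tag pile-up in a peak, lay within 500 bp in most pairs. The median distance between the summits of a pair was 179 bp with quartiles at 74 and 392 bp, and the signed median was 3 bp, which is close to no common direction along the chromosome. The summits lay within 100 bp of each other in 32.2% of the pairs and more than 500 bp apart in 964 pairs (18.1%). The peak's width bounds this distance: 10.6% of pairs under 1 kb and 28.2% of those over 7 kb of control width were past 500 bp, whereas relative to the control width the median distance was 18.1% under 1 kb and 3.17% over 7 kb. Both summits lay on the same side of their peak's centre in 50.5% of pairs under 1 kb and in 97.7% of those over 7 kb of control width. By control density that share was 56.2% in the sparsest quartile and 92.2% in the densest. In narrow and sparse peaks the place of the summit within the peak was thus much less shared. The H3K79me3 pairs of the same lines had a median summit distance of 173 bp, and 17.0% of them were past 500 bp. The distance was of like size for both marks.

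The 3 longest summit shifts lay in wide regions with similar density in both lines. At chr22:20303388-20309182 the summit moved by 3865 bp, with 3.44 RPM per kb in control and 3.57 in knockdown cells, and the knockdown peak reached 5795 bp against 3428 bp. At chr10:22997799-23003426 it moved by 3174 bp and the peak went from 2680 to 5628 bp. At chr1:2452813-2457901 it moved by 3033 bp within peaks of 4962 and 4573 bp, with 10.7 and 10.5 RPM per kb. The counting intervals of density in that last region, 10.04 to 11.5 and 9.68 to 11.3 RPM per kb, overlapped.

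The far edge of a peak is the one on the side away from the summit. It moved more variably than the near edge in pairs with both summits on the same side of the centre. H3K79me2 peaks were lopsided in both lines: the median distance from the summit to the nearer edge was 702 bp in control and 855 bp in knockdown cells, and to the farther edge 1856 bp and 2204 bp. In 4165 pairs (78.4%) both summits lay on the same side of their peak's centre, so that the near and the far edge could be matched. This choice leaves out pairs in which a large outward move of the near edge put the summit past the centre. It thus holds down large outward moves at the near edge but not at the far edge. The contrast between the edges is therefore partly built in, and how far was not tested. On the summit side the edge lay a median of 99 bp farther out in knockdown cells, with quartiles at 1 and 212 bp. On the far side the median was 149 bp with quartiles at -138 and 531 bp. An outward move of more than 1000 bp was seen at the summit-side edge in 106 pairs (2.55%) and at the far edge in 546 (13.1%). Inward moves of that size numbered 19 (0.456%) and 118 (2.83%). An outward move of any size was more frequent at the summit-side edge, in 75.1% of these pairs against 64.0% at the far edge. The order of the medians also turned with width: for control peaks of 5 to 7 kb they were 94 bp at the near and 28 bp at the far edge, and over 7 kb 81 and -156 bp. In the densest quartile of control peaks they were 106.5 and 70 bp. In genome order the start and the end had moved outward alike, by medians of 120 and 118 bp.

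**Figure D4:**
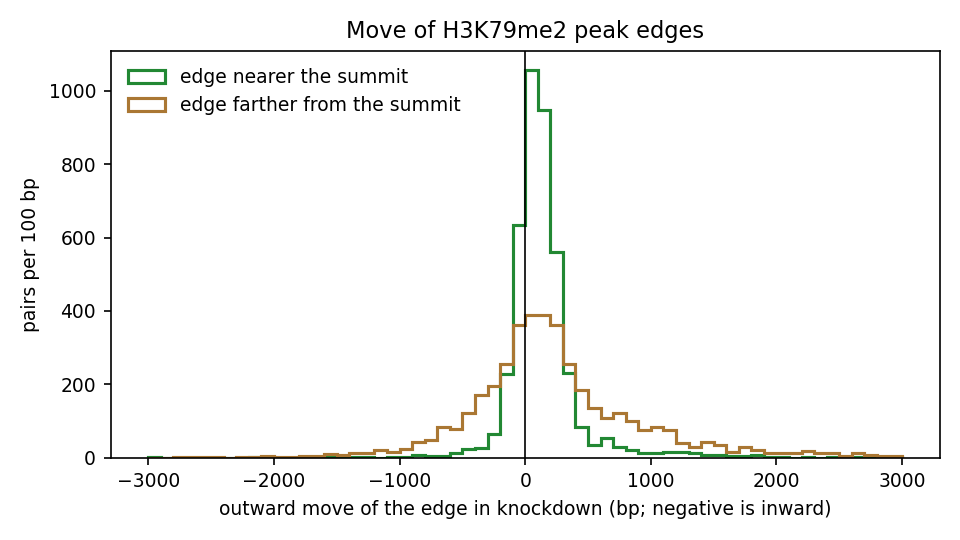
Outward move of the peak edge in knockdown relative to control cells (x axis, bp, negative is inward) in the 4165 H3K79me2 pairs with both summits on the same side of the centre, as the number of pairs per 100 bp (y axis), for the edge nearer the summit (green) and the one farther from it (brown). The green distribution is narrow around its median of 99 bp, while the brown one, with a median of 149 bp, is broad on both sides. Moves of more than 3000 bp, 0 at the nearer and 56 at the farther edge, lie outside the plot. The choice of pairs itself holds down large outward moves at the nearer edge.

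In the lists as deposited, joining of peaks in knockdown cells was more frequent than splitting, and both were rare. There were 98 knockdown peaks (1.59%, interval 1.29 to 1.93%) that overlapped 2 control peaks each, and 8 control peaks (0.118%, interval 0.0507 to 0.231%) that overlapped 2 knockdown peaks each. No peak overlapped more than 2. The number of joins was 55 with depth-scaled control scores, 7 (against 4 splits) with peaks within 1000 bp of each other joined first, 3 in the higher-scoring 50% of each list and 0 at a reciprocal overlap of 50%. The joined control peaks were close neighbours, with a median gap of 91.5 bp (range 2 to 1147 bp) and 86 of the 98 gaps under 300 bp. The control list held 130 gaps under 300 bp between neighbouring peaks and the knockdown list 38. The joining peaks were of low density, with a median of 2.93 RPM per kb, and 5 of them lay on input peaks. The median log2 ratio of their RPM to the summed RPM of the control parts was 0.18. For H3K79me3, whose estimated fragment length went the other way, from 180 bp in control to 126 bp in knockdown cells, the layout did too, with 23 knockdown peaks that joined and 57 control peaks that were split. Joining and fragment length thus moved together across the marks. The median log2 ratio of paired width was above 0 for both marks, 0.16 for H3K79me2 and 0.06 for H3K79me3. The part of fragment length in joining or width was not tested.

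The 3 joining peaks with the most tags were wide. At chr14:23560067-23567762 control peaks of 4258 and 2841 bp, with 35.3 and 20.5 RPM and 449 bp between them, faced 1 knockdown peak of 7696 bp with 47.0 RPM. At chr3:196665621-196671653 the control peaks held 24.5 and 17.0 RPM across a gap of 63 bp, and the knockdown peak 36.2 RPM. At chr8:145155519-145161350 they held 26.7 and 11.7 RPM across a gap of 193 bp, and the knockdown peak 33.9 RPM. The joined peak held less RPM than its 2 control parts together in each of these. Of the splits, the control peak at chr13:95242228-95248737 held 49.8 RPM, and the knockdown peaks beside it 13.6 and 38.0 RPM with a gap of 371 bp; the first of them reached down to 95237574. At chrX:38660679-38666611 the control peak of 38.1 RPM faced knockdown peaks of 9.21 and 17.2 RPM, and at chr11:76153599-76159396 one of 31.3 RPM faced peaks of 13.4 and 14.5 RPM.

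The H3K79me2 difference also varied with the H3K79me3 that the lists show at the site. The 3863 pairs that overlapped H3K79me3 peaks of both lines were wide and dense, with 5.33 RPM per kb in control and 4.70 in knockdown cells, a median log2 ratio of -0.20, and a median log2 ratio of width of 0.10. The 923 pairs with H3K79me3 in knockdown cells only stood at 2.72 and 2.79 RPM per kb, a median log2 ratio of 0.02, with a log2 ratio of width of 0.50. The 481 pairs without H3K79me3 in either line stood at 2.25 and 2.20 RPM per kb, with log2 ratios of -0.05 for density and 0.51 for width. The 48 pairs with H3K79me3 in control cells only had log2 ratios of -0.15 and 0.18. The classes differed in width and density, which go with the ratios as described above, and were not matched on them.

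Set beside H3K79me3, the H3K79me2 pairs differed in the direction per kb. The median log2 ratio per kb was 0.55 over 4993 H3K79me3 pairs and -0.15 over the H3K79me2 pairs, and that of width was 0.06 against 0.16. Both marks had their lowest ratio at their densest control sites: for H3K79me3 the medians over the quartiles of control density were 0.71, 0.63, 0.55 and 0.34. With quartiles of knockdown density, a form added after the values were seen, the H3K79me3 medians were 0.54, 0.66, 0.59 and 0.41, and with the mean of both 0.63, 0.65, 0.56 and 0.37. The H3K79me3 step from the sparsest to the densest quartile was thus -0.37, -0.13 and -0.25 in the 3 forms, beside -0.34, -0.14 and -0.25 for H3K79me2, so its size depended on the class variable in both marks. No test of the difference between the marks could be made with 1 library each.

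The H3K79me2 difference was spread over all chromosomes. The median log2 ratio per kb was below 0 on each of the 23 chromosomes, from -0.19 on chromosome 8 (191 pairs) to -0.09 on chromosome 3 (275 pairs), and that of width above 0 on each, from 0.10 on chromosome 14 to 0.24 on chromosome 10. With the scores as deposited, the share of control peaks without a counterpart exceeded that of knockdown peaks on all 23, least on chromosome 19, where 11.3% of 512 control and 10.1% of 493 knockdown peaks were unmatched. On chromosome 4 the shares were 25% and 12.2%. With control scores scaled to the knockdown depth, the control share was the larger on 11 chromosomes and the knockdown share on 11. The scaled lists were of near-equal length, which forces the shares together over the chromosomes as a whole. The chromosomes share the libraries and do not stand for replicates.

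**Figure D5:**
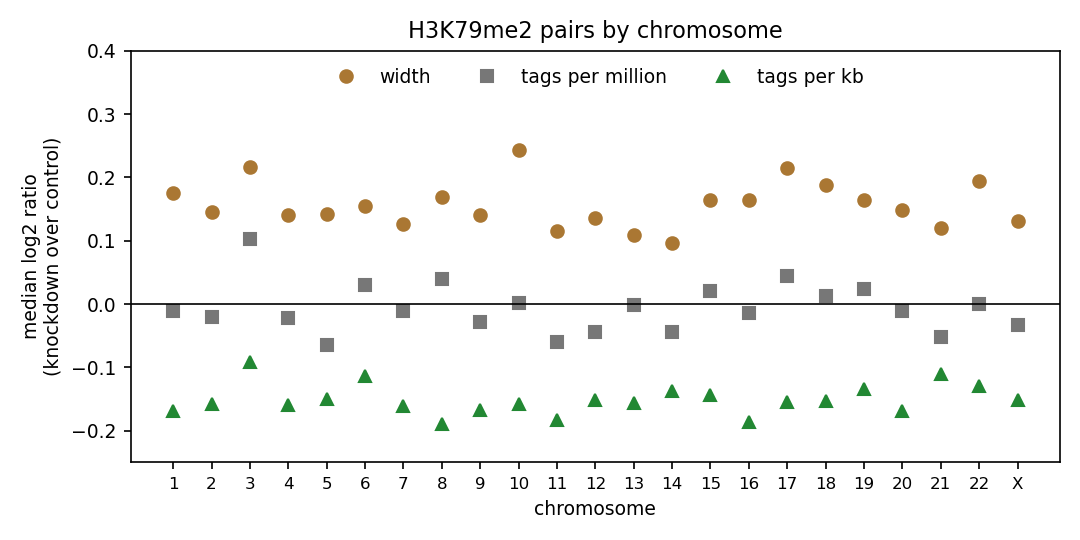
Median log2 ratio, knockdown over control, over the H3K79me2 pairs of each chromosome (x axis) for width (brown circles), RPM (grey squares) and RPM per kb (green triangles); the y axis is in log2 units and no error is drawn since there is 1 library a side. All width medians lie between 0.10 and 0.24, all medians per kb between -0.19 and -0.09, and the RPM medians lie around 0 with chromosome 3 highest at 0.10.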

How the data were processed

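Peaks were called by the authors in each library with MACS 1.4.2 without a control file, per the file headers, at a p cutoff of 1e-05. The headers also give a genome size of 2.7 Gb, a model band of 300 bp, 1 tag kept per position, and a local background taken from 10000 bp. The submitters' processing notes name Bowtie2 and hg19; the aligner's version was not given in the sources used here. The deposited lists give a whole-number tag count per peak, a fold enrichment (ratio) over the caller's background, and a significance score. Its heading names −log10 of p, per the file headers, but its lowest value of 50 at the p cutoff shows 10 times that quantity. Scores and folds are the authors' and were used within a list only. Filtered tags for RPM came from the file headers.

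Peaks on chromosomes 1 to 22 and X were compared with numpy 2.4.6, scipy 1.17.1 and pandas 2.3.3 in Python 3.11.15, and plots drawn with matplotlib 3.10.9. On simulated data of 6808 peaks, all 400 planted unmatched peaks, 50 splits and 100 joins were found. The members, classes, limits and named regions were chosen with earlier results of these data known. Named regions lay outside input peaks: the 4 pairs with the largest rise and fall per kb, the 3 with the largest widening, narrowing, summit shift and control RPM, each with at least 100 tags in both libraries; the 3 joins and 3 splits with the most tags; and the 4 highest-scoring unmatched peaks of each list. Gene lists that had been planned were not used, as an hg19 annotation was not used here. Alternatives covered the score limit, input peaks, overlap, joining of neighbours, depth-scaled scores, wide peaks, the tag denominator, merged regions, class variables, fragment length and a tag minimum. H3K79me3 classes by other peaks, and depth-scaled shares by chromosome and width, were added after the data were seen.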

Additional observations from a re-analysis of the deposited data

Results flagged for a closer look

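The layout of peaks differed between the marks in opposite directions. For H3K79me2, 98 knockdown peaks joined control peaks and 8 control peaks were split, whereas for H3K79me3 23 knockdown peaks joined control peaks and 57 control peaks were split. With 1 library per group the difference was not tested.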

How the results depend on the processing

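Of 71 values recomputed under other settings, 41 stayed within the limits used and 30 moved past them. Some values within the limits still differed in size. The 1292 control-only peaks, for instance, became 1925 with a reciprocal overlap of 50%. The RPM median, close to 0 at -0.0029, turned to above 0 without peaks over 7 kb. No paired analysis was possible because each group had 1 library. With the higher-scoring 50% of each list, 672 control and 359 knockdown peaks had no counterpart (19.7% and 11.6%), the median log2 ratios were 0.10 for width, -0.20 per kb and -0.10 for RPM, summits lay 159 bp apart, 0 peaks were split and 3 joined. The step from the sparsest to the densest control quartile was then -0.30 per kb (-0.34 in the report's classes), and the step in width from under 1 kb to 3 to 5 kb was -0.33 (-0.65). With a reciprocal overlap of 50%, 1925 control and 1293 knockdown peaks were unmatched (28.3% and 20.9%). The medians were then 0.13, -0.16 and -0.042, 0 peaks were split and 0 joined, and the width step was -0.45. With peaks within 1000 bp joined first, 4 were split and 7 joined. With control scores scaled to the knockdown depth, 932 control and 930 knockdown peaks were unmatched, 55 joined, and the width step was -0.57; lists of near-equal length force such counts together. Without peaks over 7 kb the medians were 0.17 for width and 0.014 for RPM. With tags outside peaks as the denominator they were -0.19 per kb and -0.041 for RPM. Classed by the knockdown peak, the steps were -0.14 per kb and -0.047 in width, and by the mean of both -0.25 and -0.43. With widths less the fragment length the width median was 0.14. The cause of these moves was not tested. Control peaks under 1 kb held a median of 25 tags, which limits the precision of their values.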

Other observations

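The first 75 Mb of chromosome 3 was among the stretches with the highest ratios of both marks, which was noticed after the values were seen. In windows of 25 Mb with at least 15 pairs (113 windows), the median log2 ratio of H3K79me2 per kb was below 0 in all, from -0.31 to -0.01. The 3 windows of that stretch ranked 1, 4 and 7 for H3K79me2 and 10, 2 and 3 for H3K79me3. Windows elsewhere ranked between them, such as 25 to 50 Mb of chromosome X, which ranked 2 for H3K79me2 with -0.01 per kb and 97 for H3K79me3. Over the first 75 Mb of chromosome 3 it was -0.03 in 130 pairs (quartiles -0.21 and 0.11), and 43.8% of these pairs were higher per kb in knockdown cells. Over the rest of the chromosome it was -0.14 in 145 pairs, and 26.2% were higher. Median control density was similar, at 4.72 and 4.51 RPM per kb. For RPM the medians were 0.20 and -0.01. H3K79me3 differed the same way, with 0.68 per kb in 133 pairs before 75 Mb and 0.52 in 143 pairs after it. Across the 113 windows Spearman's rho between the marks' medians was 0.35, given as a description, since windows share their libraries.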
